A study of Mus musculus with 29 samples.

Results

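The hearts described here came from mice in which the protein kinase PKCδ had been ablated in the heart after birth, and the comparison sets hearts under pressure overload against unstressed hearts of the same genotype. All libraries of these 2 groups were taken by their labels, which gave 6 of the 29 RNA-seq libraries of the series. The TAC group held 3 libraries from PKCδ-ablated C57BL/6J mice after 4 weeks of transverse aortic constriction (TAC), and the unstressed group held 3 libraries from PKCδ-ablated C57BL/6J mice without TAC. The labels give an age of 12 weeks for every library, and sexes of 1 male and 2 female mice in the TAC group and of 3 male mice in the unstressed group. Wild-type hearts (4 TAC and 4 unstressed libraries) served for the test of whether the response differed, and PKCε-knockout hearts (germline deletion; 4 TAC and 3 unstressed) and hearts with both kinases removed (4 and 4) completed the fit. The tissue is labelled whole heart while the extraction text names the apex of the ventricle, and the driver of the postnatal ablation is not given in the sources used here. The unstressed hearts are not described as sham-operated, so the surgery and the pressure load cannot be told apart. The labels do not say whether each library was a separate animal, so each p-value sets a difference against library-to-library spread, which may in part be technical. Where single hearts are spoken of below, each stands for a library.

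PKCδ is a serine/threonine kinase of the diacylglycerol-responsive PKC family, which acts downstream of Gq-coupled receptors for angiotensin II, endothelin and α1-adrenergic agonists. In TAC a constriction of the aortic arch raises the load on the left ventricle, and the muscle grows. Loaded ventricles are known to turn on genes of the embryonic heart, to lay down extracellular matrix and to lower genes of fatty acid use and of repolarising potassium currents.

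Sequencing placed between 14257646 and 15108213 reads in genes in the TAC PKCδ-ablated libraries, and between 11376690 and 13285459 in the unstressed PKCδ-ablated ones. The transcript Rn45s, a ribosomal RNA precursor, took 6.47% to 6.67% of these counts in the TAC libraries and 9.90% to 12.7% in the unstressed libraries. The deposited totals of reads aligned to several places were 11.1% to 11.2% and 8.01% to 8.43% of all reads. The sex-chromosome transcripts did not follow the sex labels. Xist, which is transcribed from the inactive X of female cells, stood at 43.0, 62.9 and 57.9 CPM, counts scaled to the same library total, in TAC replicates 1 to 3, and at 143, 135 and 153.5 CPM in unstressed replicates 1 to 3. Y-linked genes summed to 35.7, 31.6 and 24.7 CPM in the TAC libraries, against 0, 0 and 0.076 CPM in the unstressed libraries. Every TAC library thus held transcripts of both kinds and every unstressed library almost no Y-linked transcripts, so sex composition and TAC cannot be told apart within these 6 libraries.

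Counts of the targeted gene could not check the ablation. Prkcd, which encodes PKCδ, stood at 17.7, 18.3 and 20.8 CPM in the TAC libraries, and at 18.7, 16.3 and 17.6 CPM in the unstressed libraries (log2 difference 0.11 ± 0.14 SE, adjusted p = 0.603). In wild-type hearts Prkcd stood at 23.4, 20.5, 27.98 and 20.6 CPM after TAC, and at 15.5, 15.9, 13.4 and 15.8 CPM without it. The difference of PKCδ-ablated from wild-type hearts was -0.29 ± 0.13 after TAC (adjusted p = 0.853) and 0.21 ± 0.13 without it (adjusted p = 0.401), and neither passed, so the counts show no loss of the gene. Counts per gene do not show which exons the reads fell on, and non-muscle cells of the heart would keep the gene after a deletion confined to heart muscle. Prkce, the gene of the sister kinase PKCε, stood at 44.0, 44.7 and 43.1 CPM under TAC, and at 42.9, 43.7 and 42.4 CPM in unstressed hearts. These ranges lie close together, and the difference of 0.03 ± 0.29 did not pass (adjusted p = 0.953). In 2 libraries of other groups Prkce was at odds with the label. Replicate 2 of the TAC hearts lacking both kinases held 31.5 CPM, beside 8.21 to 10.97 CPM in the other 3 libraries of its group, and replicate 2 of the TAC wild-type hearts held 24.0 CPM, beside 33.3 to 42.9 CPM.

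Markers of cell types were set beside the muscle genes, since the tissue holds several kinds of cell and bulk RNA cannot tell fewer cells of a type from less RNA per cell. The 11 cardiomyocyte markers summed to 113955 to 119882 CPM under TAC and to 113661 to 119263 CPM in unstressed hearts. Fibroblast markers summed to 2949 to 3361 CPM under TAC, against 2281 to 2547 CPM, and mural-cell markers to 5627 to 5849 CPM, against 4162 to 4260 CPM. Endothelial markers summed to 2725 to 2829 CPM under TAC, against 2590 to 2692 CPM, and macrophage markers to 874 to 932 CPM, against 830 to 883 CPM. The defining red-cell genes Hba-a1 and Hbb-b1 and the nerve genes Th and Npy were at 0 in all 6 libraries. Alas2, another erythroid gene, stood at 11.3 to 11.9 CPM under TAC and at 13.4 to 15.7 CPM in unstressed hearts. The globin values of 0 therefore do not show that red-cell RNA was absent, and their cause was not tested. The fibroblast, mural and endothelial sums of the TAC libraries lay above all the unstressed ones, while the macrophage and cardiomyocyte sums overlapped. The mural list includes Des, a muscle gene given below with the Z disc, which held the larger part of that sum in every library. The rise of the mural sum therefore cannot be assigned to mural cells. Of the 12 mural markers 3 were called higher, Des among them, and 2 lower. One of the lower was Abcc9, at 376, 340 and 388 CPM under TAC, against 629, 618 and 689 CPM. Lymphoid and granulocyte markers summed to 18.7 to 21.7 CPM under TAC, against 14.9 to 15.3 CPM. The epicardial and atrial markers summed to 31.7 to 44.5 CPM, against 22.4 to 24.1 CPM. Schwann-cell and neuronal markers lay lower under TAC (14.6 to 15.7 CPM, against 17.3 to 23.4 CPM), and so did adipocyte markers (1.08 to 2.27 CPM, against 4.17 to 12.1 CPM). Skeletal muscle markers summed to 2002 to 2143 CPM under TAC, against 1512 to 1947 CPM. Yet 0 of the 9 tested members of that list were called higher and 2 were called lower (median log2 difference -0.35). Of its 15 listed markers 7 stayed below 1 CPM in all 6 libraries, so the sum rests on the most abundant members. Erythroid and platelet markers summed to 19.7 to 21.1 CPM under TAC, against 19.3 to 22.6 CPM.

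TAC changed the level of 3696 of the 13765 genes tested in PKCδ-ablated hearts at an adjusted p of 0.05, which is 26.9% of them (edgeR's quasi-likelihood test with Benjamini-Hochberg adjustment). Of these, 1774 genes rose (12.9%) and 1922 fell (14.0%), and 279 rose and 260 fell by 2-fold or more. Which direction held more genes turned with the scaling, at 1886 higher and 1762 lower with RLE normalisation, 1915 and 1745 with Rn45s left out, and 1926 and 1750 with DESeq2. The median log2 difference over all genes tested was -0.02. For 6611 of the 13765 genes (48.0%) the 3 TAC libraries did not overlap the 3 unstressed ones, with 22.6% higher and 25.4% lower. Of the 3696 called genes, 3612 did not overlap. A lack of overlap at a called gene therefore adds little to its call. In the same fit TAC called 4916 genes in wild-type hearts (35.7%), of which 2446 rose (17.8%) and 2470 fell (17.9%). The wild-type test sets 4 libraries against 4, and the PKCδ-ablated test 3 against 3. Counts of calls, here and in the lists below, therefore do not compare the strength of the 2 responses. Leaving out unstressed replicate 3 reduced the PKCδ count to 2461, and keeping male-labelled libraries, with a single TAC heart of this genotype, reduced it to 1600. That smaller set also lost the calls of named genes, among them Nppb, Myl4, Smpx, Thbs4, Comp, Fmod, Col1a1, Postn, Ltbp1, Wisp1, Fbn2, Meox1, Mef2b, Myc, Pln, Cpt1b, Cox5b, Clock, Nr1d2, Manf, Hsp90b1, Tek, Kdm8 and Mid1ip1 (adjusted p from 0.0516 to 0.513). Without both libraries whose Prkce level was at odds with the label the count was 3914.

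Genes that mark the stressed and the fetal ventricle rose or did not pass the test. Of 24 measured members of this list, 12 rose and 0 fell, with a median log2 difference of 1.28. Nppa and Nppb encode the natriuretic peptides ANP and BNP, Myh7 encodes the slow β-myosin heavy chain, and Acta1 encodes skeletal α-actin, all abundant in the embryonic or overloaded mouse ventricle. Nppa stood at 471, 677 and 1415 CPM in the TAC libraries, against 116, 131 and 133 CPM in the unstressed libraries (log2 difference 2.76 ± 0.51, adjusted p = 0.000442). The lowest TAC heart was above the highest unstressed heart, and TAC replicate 3 was far above the other TAC hearts. Myh7 stood at 708, 1221 and 860.5 CPM under TAC, against 139, 146 and 129 CPM (2.75 ± 0.43, adjusted p = 8.83e-05). Acta1 stood at 5268, 5237 and 4470 CPM under TAC, against 982, 581 and 477 CPM (2.88 ± 0.49, adjusted p = 0.000225). Nppb stood at 395, 344 and 358 CPM under TAC, against 145, 124 and 134 CPM (1.45 ± 0.36, adjusted p = 0.0046). None of these groups overlapped. Myh6, which encodes the adult fast α-myosin heavy chain, stood at 52685, 53478 and 51095 CPM under TAC and at 48785, 51164 and 48881 CPM in unstressed hearts, and its difference of 0.08 ± 0.09 did not pass (adjusted p = 0.543).

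Ankrd1, a stretch-responsive ankyrin-repeat protein of the sarcomere and nucleus, stood at 3347, 4043 and 2884 CPM under TAC, against 1190, 733 and 782 CPM in unstressed hearts (1.93 ± 0.37, adjusted p = 0.000611). Tnfrsf12a, the receptor for the cytokine TWEAK, stood at 104, 90.2 and 88.8 CPM under TAC, against 33.2, 28.2 and 24.7 CPM (1.72 ± 0.20, adjusted p = 2.64e-06). Rcan1, an inhibitor of calcineurin that calcineurin signalling itself induces, stood at 165, 129.8 and 214 CPM under TAC, against 76.9, 68.9 and 71.5 CPM (1.23 ± 0.18, adjusted p = 2.18e-05). All these genes separated the groups without overlap. Myl4, the atrial light chain of the embryonic ventricle, stood at 5.90, 14.9 and 11.1 CPM under TAC, against 3.06, 3.68 and 2.42 CPM (1.80 ± 0.43, adjusted p = 0.00309). The same list held 17 risen and 0 fallen members in wild-type hearts. The wild-type rise of Acta1 was 4.51 on the log2 scale, and the difference between genotypes of -1.63 ± 0.61 did not pass (adjusted p = 0.225), nor did that of any other member of the list.

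**Figure D1:**
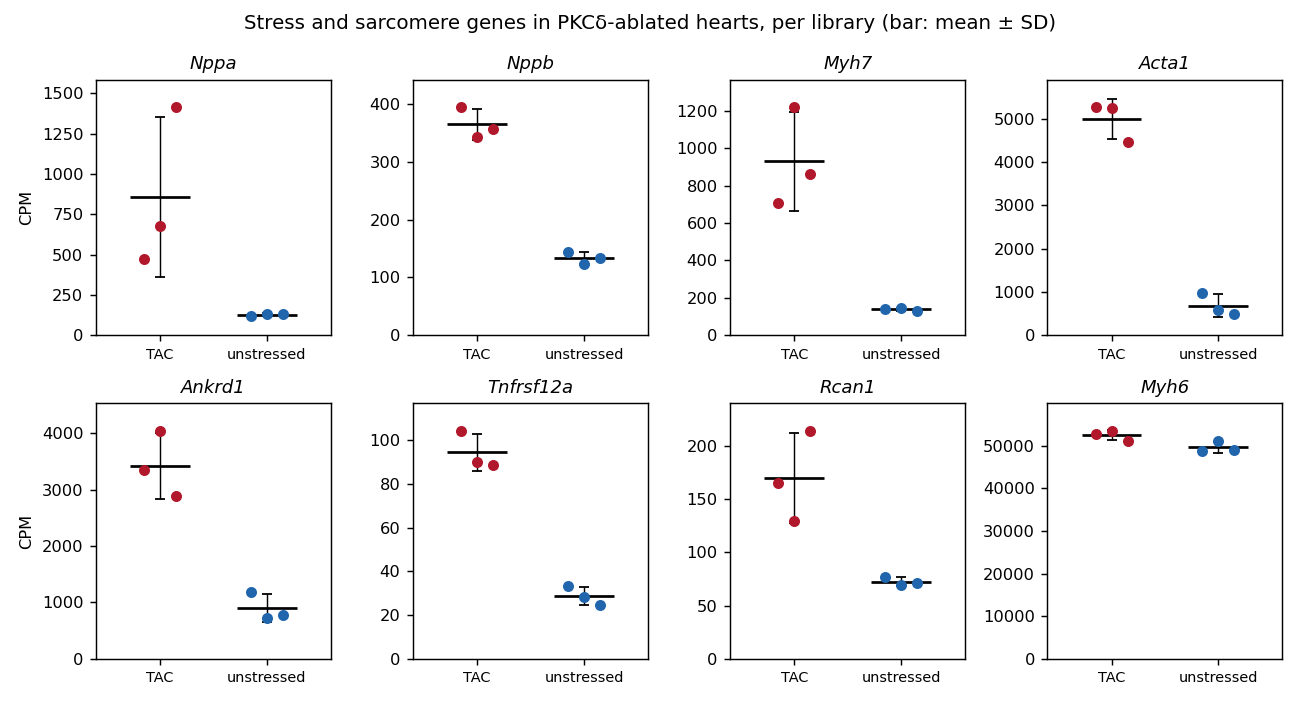
Levels of 8 stress and contractile genes in CPM, with a point for each library and a bar for the mean ± SD of 3 libraries, TAC PKCδ-ablated hearts to the left of unstressed PKCδ-ablated hearts. In 7 panels all TAC libraries lie above all unstressed libraries, with adjusted p-values from 2.64e-06 to 0.0046, and Myh6 did not pass the test. Over all genes tested, 22.6% had all TAC libraries above all unstressed ones.

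The bases just before the start sites of 4 of these genes that rose together are given here, to show which short motifs known from muscle genes lie there. Nppa lies on chromosome 4 (148000722 to 148002074, plus strand), Acta1 on chromosome 8 (123891758 to 123894775, minus strand), Myh7 on chromosome 14 (54970684 to 54994626, minus strand) and Ankrd1 on chromosome 19 (36111965 to 36119844, minus strand), by RefSeq on build GRCm38.p6. Each line gives the 250 bases before the start that RefSeq lists farthest upstream, 5′ to 3′ along the gene's strand, and all 4 genes matched a RefSeq entry. Capitals mark matches, on either strand, to the MCAT element bound by TEAD factors (CATTCC, or GGAATG on the opposite strand). They also mark, on either strand, the letters TATAAA found in TATA boxes, and the CArG box bound by serum response factor. Only exact matches are marked, so the tatataa of the Ankrd1 window is not. The windows are chr4:148000472-148000721 for Nppa, chr8:123894776-123895025 for Acta1, chr14:54994627-54994876 for Myh7 and chr19:36119845-36120094 for Ankrd1.
Nppa: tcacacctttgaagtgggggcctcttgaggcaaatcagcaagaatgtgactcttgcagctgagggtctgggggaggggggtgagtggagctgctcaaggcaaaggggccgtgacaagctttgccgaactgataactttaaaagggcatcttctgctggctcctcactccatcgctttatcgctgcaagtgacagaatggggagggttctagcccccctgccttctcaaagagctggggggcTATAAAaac
Acta1: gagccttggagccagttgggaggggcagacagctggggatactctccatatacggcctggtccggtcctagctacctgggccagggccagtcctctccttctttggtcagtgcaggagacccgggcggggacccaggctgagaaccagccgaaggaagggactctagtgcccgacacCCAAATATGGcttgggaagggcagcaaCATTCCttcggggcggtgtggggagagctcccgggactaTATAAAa
Myh7: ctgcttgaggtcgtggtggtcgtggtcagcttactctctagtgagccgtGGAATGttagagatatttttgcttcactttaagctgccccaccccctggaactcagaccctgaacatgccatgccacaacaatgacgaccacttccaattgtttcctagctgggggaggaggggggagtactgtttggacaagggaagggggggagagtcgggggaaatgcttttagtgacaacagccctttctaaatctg
Ankrd1: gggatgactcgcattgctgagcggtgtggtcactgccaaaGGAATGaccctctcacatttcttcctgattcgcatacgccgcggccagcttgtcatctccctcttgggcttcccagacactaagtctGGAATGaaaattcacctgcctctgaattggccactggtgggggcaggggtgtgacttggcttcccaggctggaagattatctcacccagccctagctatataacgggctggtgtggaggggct
The Acta1 window held 3 matches. They were a CArG box 73 to 64 bases before the start, an MCAT element 46 to 41 bases before it and the letters TATAAA 7 to 2 bases before it. The Nppa window held 1 match, the letters TATAAA 9 to 4 bases before the start. Whether the TATAAA of either gene serves as a TATA box was not tested. The Ankrd1 window held 2 MCAT matches, both on the opposite strand, 210 to 205 and 123 to 118 bases before the start. The Myh7 window held 1 MCAT match on the opposite strand, 201 to 196 bases before the start. No 2 of these matches overlapped. Among 32851 windows of the same length before annotated genes, 12.6% held the MCAT element, 12.4% the letters TATAAA and 1.47% the CArG box, anywhere in the window. These matches describe letters in the windows and are not measured binding. Exons of Nppa and Myh7 overlap those of other annotated genes along 61.5% and 17.9% of their length, and the libraries keep no strand, so reads from those neighbours cannot be told apart from reads of Nppa and Myh7.

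Core sarcomere genes split, with 7 of 23 measured members higher and 4 lower under TAC (median log2 difference 0.15). Ttn, the giant elastic protein that spans the sarcomere, stood at 12826, 12551 and 11613 CPM under TAC, against 17012, 19007 and 21308 CPM in unstressed hearts (-0.63 ± 0.12, adjusted p = 0.000246). Nebl, the cardiac relative of nebulin, stood at 51.1, 48.7 and 53.6 CPM under TAC, against 99.6, 77.3 and 84.8 CPM (-0.77 ± 0.10, adjusted p = 2.33e-06). Both genes were lower in every TAC heart. Myl3, the ventricular essential light chain, stood at 5457, 5368 and 5256 CPM under TAC, against 3331, 3941 and 3646 CPM (0.56 ± 0.08, adjusted p = 9.11e-06). Wild-type hearts held 7 risen and 6 fallen members. Leaving out unstressed replicate 3, TAC replicate 1 or TAC replicate 3 left 2 fallen members in PKCδ-ablated hearts.

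Genes of the Z disc, the anchor of the thin filaments and a site of stretch sensing, mostly rose, with 16 of 24 higher and 3 lower (median 0.62; 16 and 1 in wild-type hearts). Without unstressed replicate 1 or 3 the count of fallen genes was 0, and without any single TAC library it was 1. Ankrd23, a titin-binding ankyrin-repeat protein related to Ankrd1, stood at 1262, 1239 and 1217 CPM under TAC, against 412, 413 and 351 CPM (1.66 ± 0.17, adjusted p = 2.86e-07). Its exons overlap another gene's along 88.8% of their length, so part of this count may belong to that gene. Enah, a regulator of actin filament growth, stood at 254, 264 and 278 CPM under TAC, against 126, 106 and 108 CPM (1.22 ± 0.09, adjusted p = 2.07e-10). Nrap, an actin-anchoring protein of the intercalated disc, stood at 2423, 2458 and 1973 CPM under TAC, against 1242, 1163 and 1207 CPM (0.92 ± 0.12, adjusted p = 1.64e-06). Their TAC libraries lay clear of the unstressed libraries. Flnc, the muscle filamin, stood at 2034, 2007 and 1763 CPM under TAC, against 1080, 1132 and 991 CPM (0.86 ± 0.11, adjusted p = 1.49e-06). Des, the muscle intermediate filament desmin, stood at 4156, 4380 and 4201 CPM under TAC, against 2448, 2568 and 2392 CPM (0.78 ± 0.12, adjusted p = 2.76e-05). Smpx, a small protein of the costamere, was lower, with 104, 100.02 and 96.1 CPM under TAC, against 137, 122 and 137 CPM (-0.40 ± 0.12, adjusted p = 0.0145), a call lost with the sex label as a term and without unstressed replicate 1 or 3 or TAC replicate 3 (adjusted p from 0.053 to 0.0604). No Z-disc gene differed between the PKCδ-ablated and the wild-type response at an adjusted p of 0.05.

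Most collagen genes rose, and so did many genes of the proteins that organise them. Of 19 collagen genes measured, 13 rose and 0 fell (median 0.78; 19 and 0 in wild-type hearts), and of 56 other matrix genes 30 rose and 3 fell (median 0.60; 42 and 3 in wild-type hearts). Cilp, a matrix protein that binds transforming growth factor β, stood at 85.1, 96.4 and 111 CPM under TAC, against 8.34, 11.1 and 11.9 CPM in unstressed hearts (3.22 ± 0.39, adjusted p = 5.3e-06). Ltbp2, a microfibril protein, stood at 23.2, 36.1 and 62.4 CPM under TAC, against 3.15, 3.43 and 2.57 CPM (3.73 ± 0.54, adjusted p = 4.09e-05). Thbs4, a thrombospondin of the stressed heart, stood at 16.9, 28.7 and 45.9 CPM under TAC, against 4.76, 4.18 and 4.39 CPM (2.78 ± 0.54, adjusted p = 0.000702). The unstressed libraries lay close together for these genes, and TAC replicate 3 was the highest library for each. Comp, a matrix protein best known from cartilage, stood at 4.02, 11.7 and 19.1 CPM under TAC, against 0.936, 1.17 and 0.530 CPM (3.72 ± 0.80, adjusted p = 0.00155). Fmod, which encodes the collagen-binding proteoglycan fibromodulin, stood at 2.66, 14.0 and 16.2 CPM under TAC, against 1.45, 0.920 and 1.06 CPM (3.25 ± 0.78, adjusted p = 0.00377). A fit on these 6 libraries alone ended the Fmod call (adjusted p = 0.0664).

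Among the fibrillar and basement-membrane collagens, Col1a1 stood at 354, 380.4 and 499 CPM under TAC, against 189, 226 and 169.8 CPM (1.08 ± 0.27, adjusted p = 0.00539). Col8a1, a short-chain collagen of vessels and stressed tissue, stood at 71.6, 73.8 and 75.9 CPM under TAC, against 19.6, 24.3 and 24.2 CPM (1.70 ± 0.25, adjusted p = 4.61e-05). Col4a1, a basement-membrane collagen that surrounds muscle and vessel cells, stood at 1552, 1439 and 1814 CPM under TAC, against 931, 993 and 883 CPM (0.78 ± 0.10, adjusted p = 2.85e-06). Col4a2, the partner chain of Col4a1, differed by nearly the same amount (0.83 ± 0.10, adjusted p = 1.29e-06). Col3a1 stood at 577, 561 and 761 CPM under TAC, against 321, 397 and 351 CPM, and missed the threshold although the groups did not overlap (0.83 ± 0.32, adjusted p = 0.0578). Loxl1, which cross-links elastin, stood at 88.7, 85.2 and 101 CPM under TAC, against 44.8, 47.6 and 41.5 CPM (1.04 ± 0.20, adjusted p = 0.000458). Wisp2, a secreted CCN-family protein, stood at 13.4, 12.8 and 13.4 CPM under TAC, against 3.32, 3.51 and 2.04 CPM (2.17 ± 0.51, adjusted p = 0.00295).

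Postn, the gene of the fibroblast activation marker periostin, stood at 63.6, 60.6 and 81.3 CPM under TAC, against 24.2, 22.8 and 26.9 CPM (1.48 ± 0.45, adjusted p = 0.0187). Its call was lost on leaving out any of the unstressed libraries or TAC replicate 3, with adjusted p between 0.0512 and 0.0632. The 3 matrix genes that fell were Ltbp1, Wisp1 and Fbn2. Ltbp1, which holds latent transforming growth factor β in the matrix, stood at 71.4, 68.0 and 82.2 CPM under TAC, against 88.0, 95.6 and 93.5 CPM (-0.32 ± 0.10, adjusted p = 0.0119; 0.0501 without TAC replicate 1 and 0.0774 without TAC replicate 2). Wisp1, another CCN-family protein, stood at 1.17, 1.67 and 1.89 CPM under TAC, against 2.55, 3.68 and 3.56 CPM (-1.05 ± 0.38, adjusted p = 0.0416). Its call was lost with the sex label or the Y-linked level as a term and on leaving out any library but unstressed replicate 1 (adjusted p from 0.0565 to 0.2). Fbn2, a fibrillin of developing tissue, stood at 2.14, 1.67 and 4.19 CPM under TAC, against 7.15, 5.19 and 4.77 CPM (-1.09 ± 0.38, adjusted p = 0.0352). Its call was lost without unstressed replicate 1 or 2 or TAC replicate 1 or 2 (adjusted p from 0.0518 to 0.153) and with the replicate block (adjusted p = 0.0552). Over the 43 collagen and matrix genes that rose, TAC replicate 3 was the highest TAC library for 35 genes and replicate 1 the lowest for 24. The sum of fibroblast markers moved with these genes, and its part in the result was not tested. That sum includes Col1a1, one of the collagens above, so the 2 are not separate measures. Of 18 fibroblast markers 6 rose and 3 fell. The fallen markers were Dpt, Scara5 and Ddr2. The Dpt call was lost with RLE normalisation (adjusted p = 0.0515), with Rn45s left out (0.0539) and without the filter on low counts (0.0803). The Y-linked level as a term (0.129) and a fit on these 6 libraries alone (0.0604) also ended it. So did leaving out unstressed replicate 2 or 3 or TAC replicate 1 or 2 (adjusted p from 0.0527 to 0.333). The Scara5 call was lost with the sex label as a term (0.0603) and without unstressed replicate 2 (0.0583). Among the risen was Meox1, a homeobox factor, at 19.4, 18.4 and 29.3 CPM under TAC, against 10.5, 9.45 and 8.47 CPM (1.24 ± 0.30, adjusted p = 0.00383).

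**Figure D2:**
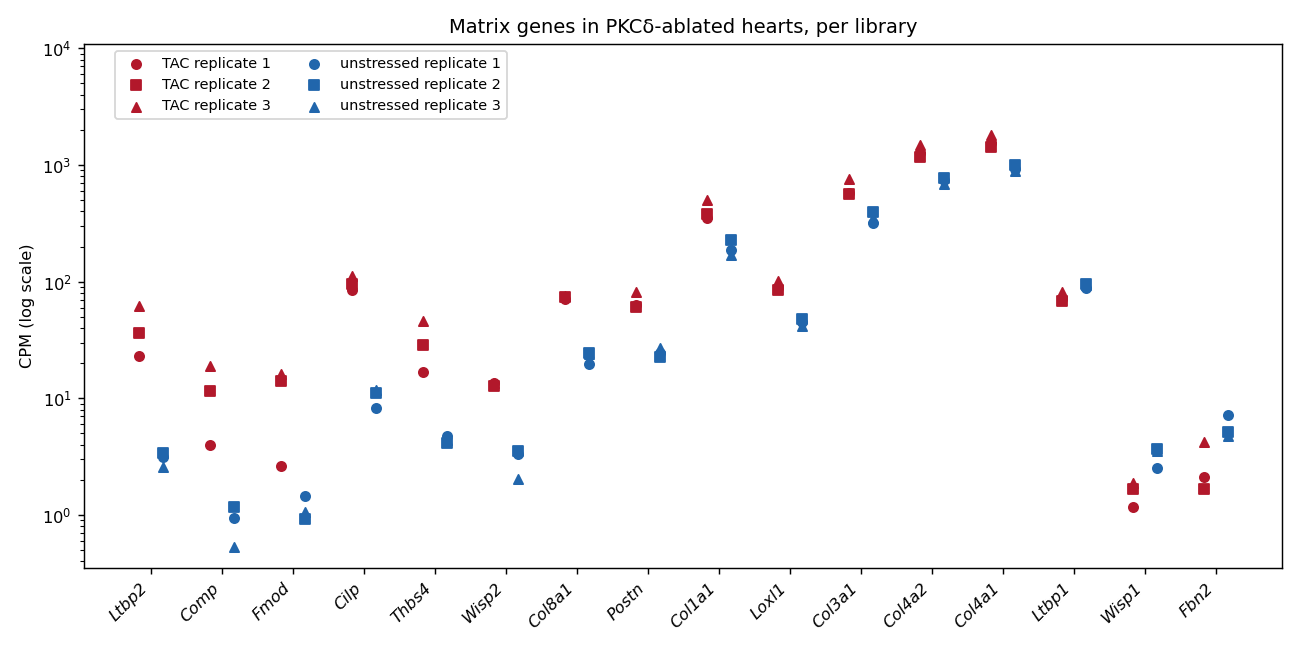
Levels of 16 collagen and matrix genes in CPM on a log axis, with a point for each TAC and each unstressed PKCδ-ablated library. Points of TAC hearts lie above those of unstressed hearts for most genes, and Ltbp1, Wisp1 and Fbn2 show the opposite order.

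Growth factors and their antagonists went both ways, with 8 of 40 measured higher and 8 lower. Edn3, an endothelin ligand of Gq-coupled receptors, stood at 11.2, 12.2 and 11.1 CPM under TAC, against 2.89, 1.84 and 2.35 CPM in unstressed hearts (2.28 ± 0.35, adjusted p = 4.86e-05). Edn3 is counted with the receptor list below and not among these 40 genes. Tgfb3, a transforming growth factor β ligand, stood at 38.9, 42.7 and 46.0 CPM under TAC, against 21.5, 23.8 and 23.5 CPM (0.89 ± 0.12, adjusted p = 3.37e-06). Fgf16, a fibroblast growth factor made in the heart, stood at 5.57, 7.27 and 5.95 CPM under TAC, against 15.3, 16.6 and 16.9 CPM (-1.38 ± 0.18, adjusted p = 3.16e-06). Thus 2 ligands were higher in all TAC hearts and Fgf16 was lower in all of them. Fgf1, the acidic fibroblast growth factor, stood at 129, 139 and 149 CPM under TAC, against 220.2, 224 and 234 CPM (-0.70 ± 0.08, adjusted p = 3.12e-07).

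Receptors and regulators of G-protein signalling, which lie upstream of the PKC family, showed 6 of 33 members higher and 8 lower (median -0.14), and without TAC replicate 2 the counts were 4 and 5. The largest rise in this list was that of Edn3, given above (2.28). Adra1b, an α1-adrenergic receptor that couples to Gq, stood at 21.8, 20.5 and 25.8 CPM under TAC, against 55.2, 66.8 and 53.6 CPM (-1.36 ± 0.19, adjusted p = 1.64e-05). Chrm2, the muscarinic receptor that slows the heart, stood at 27.9, 31.7 and 30.3 CPM under TAC, against 55.0, 60.7 and 64.9 CPM (-1.01 ± 0.12, adjusted p = 6.76e-07). Rgs6, which shortens signals of that receptor, stood at 9.53, 10.7 and 9.73 CPM under TAC, against 21.4, 19.2 and 22.7 CPM (-1.08 ± 0.16, adjusted p = 2.24e-05). The receptor and its regulator were thus both lower in every TAC heart. The Adra1b response differed from that of wild-type hearts by -1.003 ± 0.25 (adjusted p = 0.0458), a call that was lost on leaving out most single libraries of these genotypes, with adjusted p up to 0.142 without TAC replicate 1. The same call was lost with the sex label (0.0909) or the Y-linked level (0.102) as a term.

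In the kinase and transcription list, which holds the PKC and PKD isoforms, MAP kinases, class II histone deacetylases and cardiac factors such as the MEF2 family, 2 of 34 measured genes rose and 9 fell (median 0.02; 7 and 12 in wild-type hearts). Mef2a, the main MEF2 factor of the adult heart, stood at 66.3, 61.6 and 71.0 CPM under TAC, against 124, 108 and 108 CPM (-0.78 ± 0.08, adjusted p = 2.36e-07). Hdac9, a class II deacetylase that represses MEF2, stood at 23.8, 22.9 and 25.7 CPM under TAC, against 36.2, 35.0 and 40.1 CPM (-0.62 ± 0.10, adjusted p = 4.07e-05). Tbx5, a T-box factor of heart development and conduction, stood at 30.0, 33.6 and 27.0 CPM under TAC, against 53.7, 52.2 and 51.4 CPM (-0.80 ± 0.12, adjusted p = 1.69e-05). The activator and its repressor were both lower in all TAC libraries. Mef2b, detected near 1 CPM and below, was among the genes that rose, with 0.843, 1.40 and 1.15 CPM under TAC, against 0.255, 0.251 and 0.303 CPM (2.02 ± 0.53, adjusted p = 0.0049).

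Immediate early and ERK-responsive genes gave 4 of 31 higher (12.9%) and 3 lower (9.68%) in PKCδ-ablated hearts, beside 12.9% and 14.0% over all genes tested. Wild-type hearts held 14 higher and 3 lower members, and no member differed between the responses at an adjusted p of 0.05. Nr4a3, an orphan nuclear receptor, stood at 10.502, 8.14 and 10.7 CPM under TAC, against 1.70, 1.59 and 1.59 CPM in unstressed hearts (2.58 ± 0.51, adjusted p = 0.000694). Myc, a growth-promoting transcription factor, stood at 7.78, 6.47 and 8.78 CPM under TAC, against 2.72, 3.01 and 2.04 CPM (1.57 ± 0.43, adjusted p = 0.00821). Both genes were higher in all TAC hearts. Jund, an AP-1 component, stood at 88.6, 77.6 and 81.8 CPM under TAC, against 42.4, 48.0 and 31.8 CPM (1.02 ± 0.14, adjusted p = 4.76e-06), and 52.6% of its exonic length overlaps another gene. A fit on the 6 PKCδ-ablated libraries alone called 13 members of this list higher.

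Of 45 measured genes of ion channels and connexins, 19 fell and 2 rose (median -0.31), beside 14.0% lower and 12.9% higher among all genes tested. Wild-type hearts held 14 lower and 4 higher members. Inward-rectifier potassium channels, which set the resting potential and the end of repolarisation, were among the fallen genes. Kcnj2, the main ventricular inward rectifier, stood at 21.8, 20.1 and 17.6 CPM under TAC, against 33.1, 40.4 and 43.6 CPM in unstressed hearts (-0.98 ± 0.15, adjusted p = 4.26e-05). Kcnj12, its close relative, stood at 37.7, 45.7 and 41.1 CPM under TAC, against 72.9, 78.8 and 77.8 CPM (-0.88 ± 0.12, adjusted p = 3.82e-06). Kcnj5, a subunit of the channel opened by muscarinic receptors, stood at 45.6, 53.5 and 44.998 CPM under TAC, against 75.7, 94.0 and 104 CPM (-0.92 ± 0.11, adjusted p = 6.35e-07). Each of these channels was lower in every TAC heart. Scn10a, a sodium channel best known from sensory neurons, stood at 0.583, 0.400 and 0.811 CPM under TAC, against 7.66, 8.87 and 10.6 CPM (-3.90 ± 0.51, adjusted p = 6.73e-06).

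Of 29 calcium-handling genes, 2 rose and 6 fell (median -0.02; 2 and 9 in wild-type hearts). Ryr2, the calcium release channel of the sarcoplasmic reticulum, stood at 3638, 3518 and 3369 CPM under TAC, against 5092, 5093 and 5530 CPM in unstressed hearts (-0.58 ± 0.09, adjusted p = 4.22e-05). Atp2a2, which encodes the SERCA2 pump that refills the reticulum, stood at 9233, 9000 and 9503 CPM under TAC, against 11857, 12562 and 13713 CPM (-0.46 ± 0.11, adjusted p = 0.00194). Pln, the inhibitor of that pump, stood at 1262, 1167 and 1058 CPM under TAC, against 1574, 1858 and 1997 CPM (-0.64 ± 0.14, adjusted p = 0.00151), with 59.6% of its exonic length shared with another gene. Pump, inhibitor and release channel were thus lower in all TAC libraries. The 2 risen genes were Jph1 and Jph2, which encode junctophilins, the tethers between the surface membrane and the reticulum. Jph2, the cardiac form, stood at 936, 948 and 979 CPM under TAC, against 699.5, 719.9 and 673 CPM (0.45 ± 0.07, adjusted p = 5.51e-05). Jph1, the form of skeletal muscle, stood at 29.7, 26.7 and 24.6 CPM under TAC, against 19.9, 21.0 and 19.97 CPM (0.41 ± 0.13, adjusted p = 0.0144). Its TAC call was lost with the Y-linked level as a term (adjusted p = 0.0755) and on leaving out unstressed replicate 3 (0.0526) or TAC replicate 1 (0.0826). The Jph1 change was -0.39 in wild-type hearts, and the responses differed by 0.80 ± 0.16 (adjusted p = 0.0111; 0.0548 without TAC replicate 1).

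**Figure D3:**
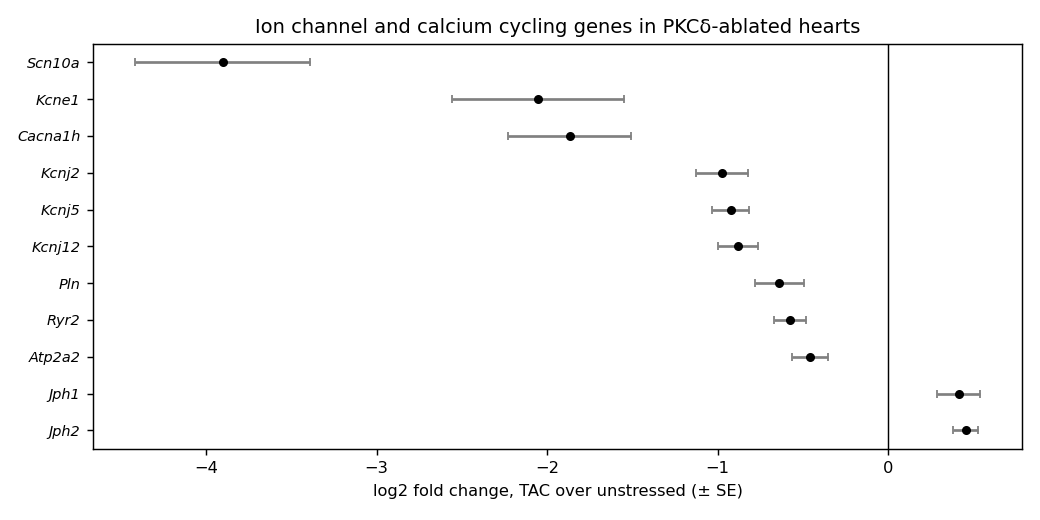
Log2 difference between TAC and unstressed PKCδ-ablated hearts, with its standard error, for the ion channel and calcium-handling genes given by name. Scn10a lies farthest to the left at -3.90, and only Jph1 and Jph2 of the genes drawn lie to the right of 0, at 0.41 and 0.45.

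Of 39 genes of fatty acid use, 14 fell and 2 rose (median -0.21), against 27 and 1 in wild-type hearts, and no member differed between the genotypes' responses at an adjusted p of 0.05. Without unstressed replicate 1 or TAC replicate 3 the count of fallen members was 9. Acsl1, which activates long-chain fatty acids, stood at 787, 742 and 751 CPM under TAC, against 1117, 1020 and 1102 CPM in unstressed hearts (-0.51 ± 0.11, adjusted p = 0.00104). Lpl, the lipase that frees fatty acids from lipoproteins, stood at 2972, 2806 and 2841 CPM under TAC, against 3877, 4006 and 4196 CPM (-0.49 ± 0.10, adjusted p = 0.000917). Eci2, an enzyme of the oxidation of unsaturated fatty acids, stood at 85.0, 77.1 and 77.4 CPM under TAC, against 113, 109.6 and 122 CPM (-0.52 ± 0.09, adjusted p = 0.000122). Uptake, activation and oxidation were each represented among the fallen genes. The 2 risen genes were Acads and Cpt1b. Acads, the short-chain acyl-CoA dehydrogenase, stood at 237, 238 and 244 CPM under TAC, against 180.3, 200.2 and 155 CPM (0.43 ± 0.08, adjusted p = 0.00042). Cpt1b, the muscle carnitine palmitoyltransferase, shares 94.8% of its exonic length with another gene, so its count cannot be assigned to it alone (0.47 ± 0.15, adjusted p = 0.016; 0.123 without unstressed replicate 1).

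Transcriptional regulators of metabolism held 2 risen and 7 fallen genes of 21 (median -0.17), with 4 fallen genes without TAC replicate 1 or 2. Ppara, a nuclear receptor that drives genes of fatty acid oxidation, stood at 92.4, 86.5 and 90.7 CPM under TAC, against 123, 125 and 139.9 CPM (-0.53 ± 0.09, adjusted p = 6.24e-05). Esrrg, a nuclear receptor of oxidative metabolism, stood at 32.5, 32.7 and 35.7 CPM under TAC, against 48.4, 46.9 and 48.2 CPM (-0.51 ± 0.08, adjusted p = 3.47e-05). Both receptors were lower in every TAC heart. Genes of the citric acid cycle and of branched-chain amino acid breakdown gave 1 risen and 11 fallen genes of 34 (median -0.19; 0 and 21 in wild-type hearts), and without TAC replicate 3 or unstressed replicate 3 the fallen genes numbered 7 and 5. Cs, the citrate synthase, stood at 1277, 1260 and 1315 CPM under TAC, against 1600, 1733 and 1771 CPM (-0.41 ± 0.07, adjusted p = 0.000193). Ppm1k, the phosphatase that activates the branched-chain ketoacid dehydrogenase, stood at 37.6, 36.0 and 34.7 CPM under TAC, against 83.3, 76.5 and 94.6 CPM (-1.23 ± 0.10, adjusted p = 7.9e-10). The risen gene was Bckdha, a subunit of that dehydrogenase, at 352, 344 and 367 CPM under TAC, against 239, 305 and 226 CPM (0.47 ± 0.10, adjusted p = 0.000768). The enzyme subunit was therefore higher and its activating phosphatase lower in all TAC libraries.

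Oxidative phosphorylation genes did not move together, with 8 of 51 higher and 9 lower (median 0.02; 3 and 16 in wild-type hearts). These calls are 15.7% and 17.6% of the list, beside 12.9% and 14.0% over all genes tested. Cox5b, a subunit of cytochrome c oxidase, stood at 565, 575 and 542 CPM under TAC, against 721, 731 and 746 CPM (-0.39 ± 0.08, adjusted p = 0.00102). Atp5h and Atp5d, both subunits of the ATP synthase, moved oppositely. Atp5h stood at 479, 464 and 455 CPM under TAC, against 626, 603 and 668 CPM (-0.44 ± 0.09, adjusted p = 0.000372). Atp5d stood at 828, 815 and 807 CPM under TAC, against 582, 672 and 543 CPM (0.45 ± 0.09, adjusted p = 0.000414). With the Y-linked level as a term, 5 members were higher and 13 lower. Glucose and glycolysis genes showed 2 of 32 higher, namely Pfkl and Pgam2, and 4 lower, with 1 lower without unstressed replicate 3 or TAC replicate 3. The 2 and 4 genes are 6.25% and 12.5% of that list.

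Of 46 ribosomal protein genes, 29 rose and 3 fell (median 0.31; 30 and 2 in wild-type hearts). Rplp2, a protein of the ribosomal stalk, stood at 144, 129.5 and 127 CPM under TAC, against 67.2, 77.2 and 50.6 CPM in unstressed hearts (1.04 ± 0.15, adjusted p = 1.87e-05). Rps14, of the small subunit, stood at 268, 303 and 264 CPM under TAC, against 161, 177 and 172 CPM (0.71 ± 0.09, adjusted p = 3.05e-06). Rps25, also of the small subunit, was lower, at 138, 143 and 124 CPM under TAC, against 175, 188 and 213 CPM (-0.51 ± 0.09, adjusted p = 0.000184), with 48.7% of its exonic length overlapping another gene. TAC replicate 3 was the lowest TAC library for 26 of the 29 risen ribosomal genes, whereas it was the highest for most risen matrix genes. Gene length moved with the TAC difference across all genes. In the fifth of genes with the shortest exonic length, 2734 genes, the median difference was 0.10 and 19.4% were called higher and 7.57% lower. In the fifth with the longest, also 2734 genes, the median was -0.14 and 8.12% were called higher and 25.1% lower. Wild-type medians were 0.12 for the same short genes and -0.13 for the same long genes. The part of transcript length or RNA quality in the rise of the short ribosomal transcripts and the fall of long ones such as Ttn and Ryr2 was not tested.

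Cell-cycle genes showed 0 of 49 members higher and 5 lower (median -0.05; 2 lower without unstressed replicate 3 and 3 without TAC replicate 2). The 5 fallen genes are 10.2% of the list, beside 14.0% over all genes tested. Cenpf, a kinetochore protein, stood at 5.83, 5.801 and 7.03 CPM under TAC, against 38.3, 36.7 and 45.2 CPM (-2.69 ± 0.19, adjusted p = 5.7e-11). The fall was -1.53 in wild-type hearts, and the responses differed by -1.15 ± 0.24 (adjusted p = 0.012; 0.0549 without TAC replicate 1). Circadian clock genes gave 0 of 20 higher and 3 lower (2 and 10 in wild-type hearts), with 1 lower without unstressed replicate 3. The 3 fallen genes are 15.0% of the list, beside 14.0% over all genes tested. Clock, the core activator, stood at 32.6, 29.2 and 36.6 CPM under TAC, against 59.0, 51.5 and 54.6 CPM (-0.75 ± 0.16, adjusted p = 0.00112). Nr1d2, a repressor of the same loop, stood at 42.7, 40.1 and 34.2 CPM under TAC, against 55.2, 56.5 and 62.0 CPM (-0.57 ± 0.16, adjusted p = 0.0105), and lost its call with the Y-linked level as a term (adjusted p = 0.0743) and without unstressed replicate 3 (0.0524) or TAC replicate 3 (0.0619). The labels give no time of day for tissue collection.

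Chaperone and endoplasmic reticulum stress genes gave 10 of 34 higher and 5 lower (median 0.20), with 5 higher without TAC replicate 2 or unstressed replicate 3, and 6 higher without TAC replicate 1. Atf4, the transcription factor of the integrated stress response, stood at 60.2, 58.5 and 56.1 CPM under TAC, against 44.2, 40.4 and 43.8 CPM (0.44 ± 0.08, adjusted p = 0.000268). Manf, a secreted factor induced by reticulum stress, stood at 19.4, 18.7 and 17.1 CPM under TAC, against 27.9, 32.4 and 39.2 CPM (-0.85 ± 0.18, adjusted p = 0.00112). Hsp90b1, a chaperone of the reticulum, stood at 192, 179 and 178 CPM under TAC, against 222, 246 and 257 CPM (-0.40 ± 0.09, adjusted p = 0.00183). Atf4 was thus higher, and both reticulum genes lower, in all TAC hearts. Antioxidant and cell-death genes gave 4 of 28 higher (1 without unstressed replicate 3) and 2 lower. These calls are 14.3% and 7.14% of the list, beside 12.9% and 14.0% over all genes tested. Among the fallen was Bcl2l11, the pro-apoptotic protein BIM, at 7.97, 9.47 and 6.82 CPM under TAC, against 18.5, 20.9 and 21.0 CPM (-1.32 ± 0.16, adjusted p = 7.62e-07). Interferon genes gave 1 of 24 higher and 0 lower, with 0 higher without unstressed replicate 3 and 5 higher when the Y-linked level was a term.

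**Figure D4:**
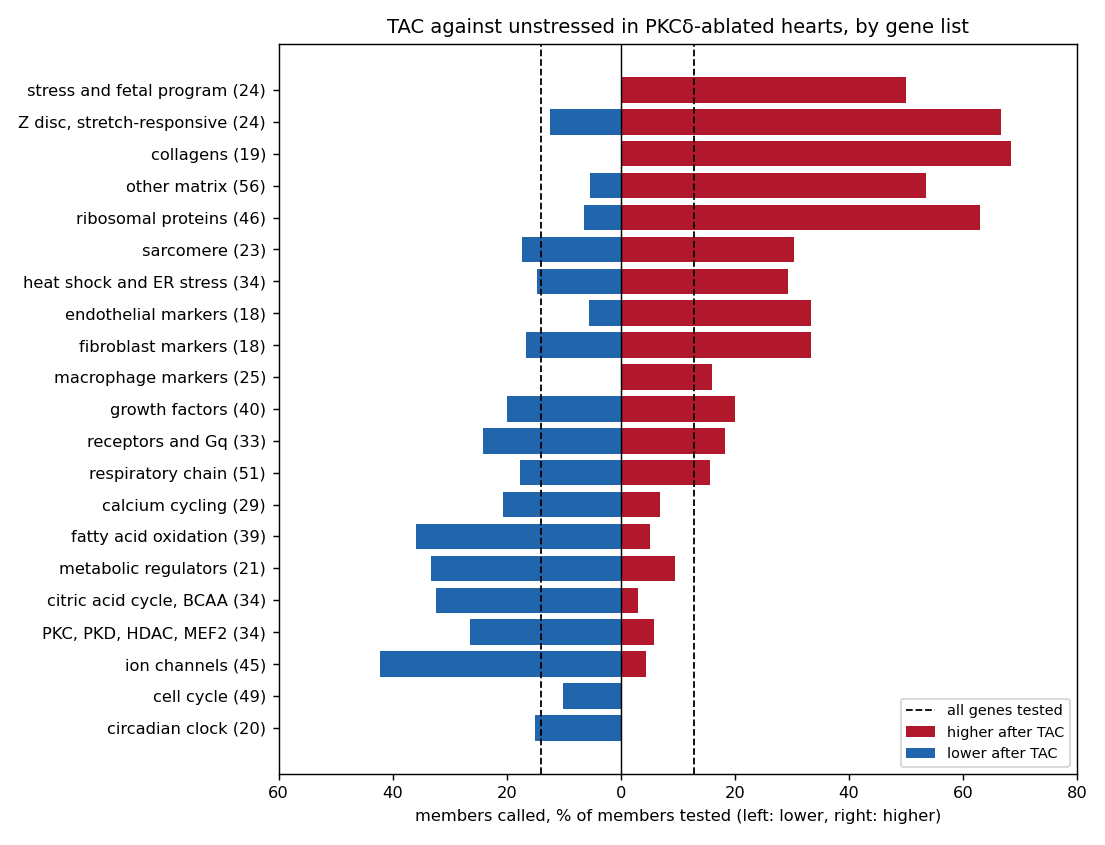
Share of the tested members of each gene list that rose (right) or fell (left) under TAC in PKCδ-ablated hearts, in percent, with dashed lines at the shares over all genes tested, 12.9% higher and 14.0% lower. Collagen, Z-disc, ribosomal and matrix lists extend farthest to the right, and ion channels and fatty acid genes to the left.

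Macrophage markers gave 4 of 25 higher and 0 lower in PKCδ-ablated hearts, and 20 higher and 1 lower in wild-type hearts. The 4 risen markers are 16.0% of the list, beside 12.9% over all genes tested. No marker differed between the responses at an adjusted p of 0.05. C1qa, a complement component made by macrophages, stood at 58.7, 59.6 and 62.6 CPM under TAC, against 45.9, 45.4 and 39.5 CPM (0.47 ± 0.09, adjusted p = 0.000256). Of 18 endothelial markers 6 rose and 1 fell, with 3 risen without unstressed replicate 1 or 3 or TAC replicate 3. Robo4, a receptor of vessel stability, stood at 81.7, 81.1 and 83.3 CPM under TAC, against 66.4, 66.0 and 60.8 CPM (0.35 ± 0.08, adjusted p = 0.00119). Sox17, a transcription factor of arterial endothelium, stood at 10.4, 9.60 and 9.9995 CPM under TAC, against 4.42, 6.11 and 4.46 CPM (1.003 ± 0.21, adjusted p = 0.000769). The marker that fell was Tek, the angiopoietin receptor (-0.34 ± 0.10, adjusted p = 0.00966; 0.0732 without unstressed replicate 3). Of 12 mural markers 3 rose and 2 fell (1 fell without unstressed replicate 3 or TAC replicate 2), of 9 lymphoid and granulocyte markers 1 rose (0 without unstressed replicate 1 or 3 or TAC replicate 1 or 3), and of 11 cardiomyocyte markers 3 rose and 3 fell.

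The response of PKCδ-ablated hearts was then tested against that of wild-type hearts in the same fit. The 2 responses differed for 175 genes (1.27% of those tested), with the PKCδ-ablated response more positive for 63 (0.458%) and more negative for 112 (0.814%). For the 63 genes the median TAC difference was 0.46 in PKCδ-ablated hearts and -0.36 in wild-type hearts, and for the 112 genes it was -0.72 and 0.47. These medians describe genes chosen on that difference and carry no test. The count rests on few libraries and was 56 and 93 without TAC replicates 1 and 2 of the PKCδ-ablated hearts, and 111 and 105 without their unstressed replicates 1 and 3. It was 104 without TAC wild-type replicate 1, and 101 without unstressed wild-type replicate 1 or 4. The unstressed hearts of the 2 genotypes differed for 739 genes (5.37%; 363 higher in PKCδ-ablated hearts, 2.64%, and 376 lower, 2.73%), whereas after TAC they differed for 0 genes (0.0%; edgeR), with 789 genes at an unadjusted p under 0.05 and 1 gene called by DESeq2. Of the 63 genes with a more positive response, 60 were called lower in unstressed PKCδ-ablated than in unstressed wild-type hearts. Of the 112 with a more negative response, 105 were called higher there. After TAC 0 of the 63 and 0 of the 112 were called between the genotypes, which follows from the 0 calls over all genes tested. The tests share the unstressed and TAC libraries, so they are not independent. Sex composition also moved with these comparisons. Y-linked genes summed to at most 0.076 CPM in unstressed PKCδ-ablated hearts and to 24.7 to 35.7 CPM after TAC, whereas in wild-type hearts they summed to 12.1, 27.9, 0.065 and 32.5 CPM after TAC and to 51.6, 0, 0.201 and 59.6 CPM without it. The change of sex composition and the genotype's own response therefore cannot be fully told apart. With the sex label as a term 125 genes differed between the responses, of which 119 are among the 175, and with the Y-linked level as a term 199 did, of which 128 are among the 175. Over all 13765 genes tested, the 3 unstressed PKCδ-ablated libraries lay above all 26 other libraries for 82 genes and below all of them for 69, and the 3 TAC PKCδ-ablated libraries did so for 5 and 6.

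The genes with the largest negative differences stood high in unstressed PKCδ-ablated hearts. Fmn1, which encodes the actin nucleator formin 1, stood at 1.69, 2.40 and 2.30 CPM in TAC PKCδ-ablated hearts, against 48.7, 47.0 and 46.8 CPM in unstressed PKCδ-ablated hearts. Wild-type hearts held 3.29, 2.04, 7.06 and 2.58 CPM of Fmn1 after TAC and 1.66, 1.73, 2.11 and 2.14 CPM without it. The unstressed PKCδ-ablated libraries lay above all 26 other libraries for Fmn1 (difference between responses -5.45 ± 1.13, adjusted p = 0.0151; 0.0598 without TAC replicate 1 of the PKCδ-ablated hearts). Wdr92, a protein of the assembly of dynein arms and other complexes, stood at 17.3, 18.3 and 16.6 CPM in TAC PKCδ-ablated hearts, against 136, 82.2 and 93.5 CPM in unstressed ones. In wild-type hearts Wdr92 stood at 15.5, 28.4, 22.7 and 14.8 CPM after TAC and at 14.6, 12.3, 20.8 and 14.6 CPM without it (difference between responses -2.97 ± 0.53, adjusted p = 0.00608). Here too the unstressed PKCδ-ablated hearts stood above the TAC hearts of that genotype and above both wild-type groups. Ndnf, a secreted neuronal and vascular factor, stood at 1.49, 2.47 and 2.77 CPM in TAC PKCδ-ablated hearts, against 18.6, 19.3 and 19.0 CPM in unstressed ones (difference between responses -3.34 ± 0.78, adjusted p = 0.0325). The Ndnf call was lost on leaving out any of 9 of the 14 libraries of both genotypes, with adjusted p up to 0.12 without TAC replicate 1 of the PKCδ-ablated hearts. It was also lost with the sex label as a term (0.0614). Slc7a1, the transporter of arginine and lysine, stood at 40.0, 41.1 and 45.8 CPM in TAC PKCδ-ablated hearts, against 179, 173 and 176 CPM in unstressed ones. It was also lower after TAC in wild-type hearts, at 43.2, 38.9, 46.9 and 46.4 CPM, against 70.6, 86.1, 75.7 and 70.3 CPM. The fall was larger in PKCδ-ablated hearts by -1.27 ± 0.17 (adjusted p = 0.000269). Fmn1 lies on chromosome 2 (113327664 to 113716768), Wdr92 on chromosome 11 (17211893 to 17235200) and Scn10a on chromosome 9 (119608456 to 119719322).

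Ion channel genes were among those with a different response. Cacna1h, which encodes a T-type calcium channel of the fetal and loaded ventricle, stood at 6.35, 13.3 and 7.70 CPM in TAC PKCδ-ablated hearts, against 33.1, 39.4 and 27.6 CPM in unstressed ones (-1.87 ± 0.36, adjusted p = 0.000567). In wild-type hearts Cacna1h stood at 28.6, 14.0, 17.5 and 9.33 CPM after TAC, against 9.16, 8.19, 7.23 and 8.22 CPM. The gene was lower after TAC in PKCδ-ablated hearts and higher in wild-type hearts, by 1.08 there, and the responses differed by -2.94 ± 0.48 (adjusted p = 0.00306). Scn10a stood at 1.81, 2.30, 2.20 and 1.39 CPM in TAC wild-type hearts, against 3.17, 3.61, 2.51 and 2.61 CPM, and the responses differed by -3.28 ± 0.67 (adjusted p = 0.012; 0.0548 and 0.0503 without TAC replicates 1 and 2 of the PKCδ-ablated hearts). Kcne1, a regulatory subunit of the slow delayed rectifier, stood at 4.08, 4.93 and 1.82 CPM in TAC PKCδ-ablated hearts, against 19.0, 13.3 and 13.0 CPM in unstressed ones (-2.06 ± 0.50, adjusted p = 0.00435). In wild-type hearts Kcne1 stood at 8.45, 6.69, 6.93 and 1.88 CPM after TAC, against 1.80, 3.98, 3.92 and 2.14 CPM. These wild-type groups overlapped, and the responses differed by -3.11 ± 0.70 (adjusted p = 0.0268), a call lost on leaving out any of 7 of the 14 libraries, with adjusted p up to 0.0738 without unstressed replicate 1 of the PKCδ-ablated hearts. The Kcne1 call was also lost with the sex label as a term (0.0662). Fbn2 stood at 5.57, 4.53, 3.89 and 3.20 CPM in TAC wild-type hearts, against 1.37, 1.43, 1.10 and 1.40 CPM, a rise of 1.68 where PKCδ-ablated hearts fell. The Fbn2 responses differed by -2.77 ± 0.54 (adjusted p = 0.00895).

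**Figure D5:**
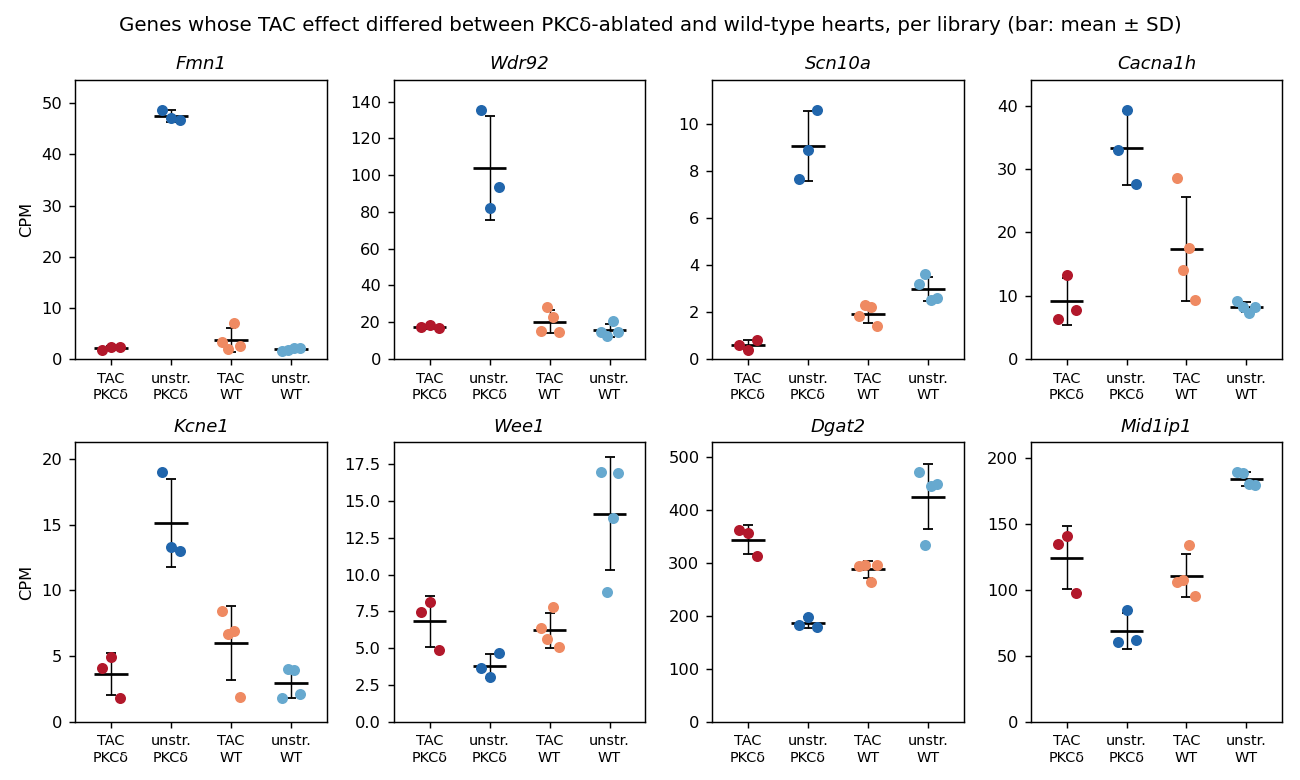
Levels of 8 genes in CPM in TAC PKCδ-ablated, unstressed PKCδ-ablated, TAC wild-type and unstressed wild-type hearts, with a point for each library and a bar for the mean ± SD. For Fmn1, Wdr92, Scn10a and Kcne1 the unstressed PKCδ-ablated libraries stand above all libraries of the other groups shown, and for Cacna1h they overlap with TAC wild-type hearts. For Wee1 and Mid1ip1 the unstressed wild-type libraries stand above all others shown, and for Dgat2 3 of the 4 do.

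Genes with a more positive response in PKCδ-ablated hearts stood low in the unstressed hearts of that genotype. Dgat2, an enzyme of triglyceride synthesis, stood at 361, 356 and 312 CPM in TAC PKCδ-ablated hearts, against 183, 198 and 178 CPM in unstressed ones (0.88 ± 0.19, adjusted p = 0.00135). In wild-type hearts Dgat2 stood at 294, 296, 264 and 295 CPM after TAC, against 470.4, 334, 445 and 448 CPM. It was thus higher after TAC in PKCδ-ablated hearts and lower in wild-type hearts, and the responses differed by 1.44 ± 0.25 (adjusted p = 0.00407). Mid1ip1, an X-linked gene whose protein promotes fatty acid synthesis, stood at 135, 141 and 97.4 CPM in TAC PKCδ-ablated hearts, against 60.5, 85.0 and 62.0 CPM in unstressed ones. Wild-type hearts held 106, 108, 134 and 95.8 CPM of Mid1ip1 after TAC, against 189, 189, 180.3 and 179 CPM (difference between responses 1.58 ± 0.31, adjusted p = 0.012). The gene shares 26.9% of its exonic length with another gene. Wee1, a kinase that holds back entry into mitosis, stood at 7.45, 8.14 and 4.86 CPM in TAC PKCδ-ablated hearts, against 3.66, 3.01 and 4.69 CPM in unstressed ones, a difference that missed the threshold (0.84 ± 0.36, adjusted p = 0.0823). In wild-type hearts Wee1 stood at 6.37, 5.61, 7.77 and 5.08 CPM after TAC, against 16.9, 8.79, 13.9 and 16.9 CPM, and the responses differed by 2.03 ± 0.45 (adjusted p = 0.0205), a call lost without unstressed replicate 1 or 2 or TAC replicate 1 or 2 of the PKCδ-ablated hearts (adjusted p from 0.06 to 0.0726). The Wee1 call was also lost with the Y-linked level as a term (0.056). Kdm8, a Jumonji-domain protein, stood at 5.12, 6.53 and 4.797 CPM in TAC PKCδ-ablated hearts, against 3.23, 3.51 and 2.65 CPM in unstressed ones (difference between responses 1.4995 ± 0.25, adjusted p = 0.00156).

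The response was also set against the mean response of the other 3 genotypes, which gave 164 genes (1.19%), 75 more positive (0.545%) and 89 more negative (0.647%) in PKCδ-ablated hearts. Fmn1, Wdr92, Scn10a, Dgat2 and Mid1ip1 passed in this test as well, which uses the same PKCδ-ablated libraries and is therefore no independent repeat. Without unstressed replicate 3 the adjusted p was 0.0641 for Scn10a, 0.0625 for Dgat2 and 0.164 for Mid1ip1, and without TAC replicate 1 it was 0.0811 for Scn10a and 0.138 for Mid1ip1. Slc1a4, a transporter of alanine and serine, stood at 4.02, 3.40 and 6.08 CPM in TAC PKCδ-ablated hearts, against 7.66, 14.6 and 11.4 CPM in unstressed ones. Cntn2, an adhesion protein of the conduction system, stood at 0.519, 1.27 and 1.08 CPM in TAC PKCδ-ablated hearts, against 14.5, 16.3 and 15.3 CPM in unstressed ones (-4.00 ± 0.59, adjusted p = 3.88e-05). Its difference from the other genotypes lost the call on leaving out any of the 6 PKCδ-ablated libraries (adjusted p from 0.0512 to 0.153) and with the sex label as a term (0.0578). Both were low in every TAC heart of this genotype. The count of 164 fell to 22, 28 and 73 without TAC replicates 1, 2 and 3, to 82 and 14 without unstressed replicates 1 and 3, and to 11 with male-labelled libraries alone. It was 274 without replicate 2 of the TAC hearts lacking both kinases. It was 298 without both libraries whose Prkce level was at odds with the label.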

How the data were processed

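Poly(A)-selected RNA of mouse hearts was sequenced as single-end reads without strand on an Illumina sequencer, per the labels' protocols. The deposited values are raw counts of reads per gene, 1 file for each library, and 5 further totals per file, for reads not assigned to a gene, entered neither library sizes nor tests. The submitters' processing notes name mm10, TopHat2 2.0.10, Bowtie2, HTSeq, DESeq and edgeR without their roles, and the annotation used for counting is not given in the sources used here.

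From these counts, edgeR 4.0.16 (R 4.3.3) was run with trimmed-mean normalisation, its default filter on low counts and robust quasi-likelihood dispersions, with a mean for each of the 8 groups over all 29 libraries. The contrasts were TAC minus unstressed hearts, and the difference of that effect from wild-type hearts and from the mean of the other 3 genotypes. Every adjusted p is from edgeR's quasi-likelihood test with Benjamini-Hochberg adjustment over 13765 genes, with a threshold of 0.05, and values after ± are standard errors of a log2 difference. Levels are CPM on normalised library sizes. Replicates were compared before use, and their counts differed by more than sampling noise, so each counted as 1 sample. The chi-square per degree of freedom was 2.45 between TAC replicates 1 and 2 of the PKCδ-ablated hearts, and 5.10 and 5.08 for their other pairs. Pairs within the other TAC groups gave 7.46 to 36.4. These values do not show that the libraries were separate animals. No sex term was used because the sex-chromosome transcripts go against the sex labels, and sex terms were alternatives. The members and lists were chosen with earlier results of these data known. Genes were named by rule: Prkcd and Prkce, up to 15 called genes in each direction with the largest TAC difference, up to 8 in each direction of each difference between responses (both at a mean log2 CPM of 2 or more and without overlap of the 2 groups), up to 4 members of each list with the smallest adjusted p together with those called against most of the list, and a panel of known stress genes. The text names a subset, and some genes that the rule selects are not reported here. The fit was tested on simulated data. Positions are RefSeq's on GRCm38.p6, the assembly of mm10 (13727 tested genes matched), and exonic lengths and overlaps are those of GENCODE vM21 (13670 matched). Depth limits genes near 1 CPM most. Alternatives were DESeq2 1.42.0, other normalisation, no filter, sex terms, a replicate block, subsets and leaving out each library.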

Additional observations from a re-analysis of the deposited data

Results flagged for a closer look

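For the following genes the response to TAC differed between genotypes by the test of that difference (edgeR's quasi-likelihood test with Benjamini-Hochberg adjustment), and each value is the TAC effect in PKCδ-ablated hearts minus that in the other hearts, on the log2 scale. Against wild-type hearts the response was more positive for Wee1 (2.03), Lonrf1 (1.72), Mid1ip1 (1.58), Kdm8 (1.5), Dgat2 (1.44), Pkig (0.97), Aqp1 (0.95) and Ccdc85a (0.88). Pkig, an inhibitor of protein kinase A, stood at 152, 142 and 150.0 CPM in TAC PKCδ-ablated hearts, against 72.4, 94.3 and 62.5 CPM in unstressed ones. Aqp1, a water channel of small vessels, stood at 425, 402 and 359 CPM under TAC, against 270.2, 291 and 276 CPM. The calls of Aqp1 and Ccdc85a were lost with the sex label (adjusted p = 0.069 and 0.0909), with the Y-linked level (0.0905 and 0.0932), and on leaving out any of 11 and 10 of the 14 libraries of both genotypes (up to 0.132 and 0.17).

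Against wild-type hearts the response was more negative for Fmn1 (-5.45), Ndnf (-3.34), Scn10a (-3.28), Kcne1 (-3.11), Epn3 (-3.02), Wdr92 (-2.97), Cacna1h (-2.94) and Fbn2 (-2.77). Epn3, an adaptor of endocytosis, stood at 8.10, 14.1 and 6.62 CPM in TAC PKCδ-ablated hearts, against 34.5, 38.7 and 32.8 CPM in unstressed ones, and its call was lost on leaving out any of 11 of the 14 libraries of both genotypes (adjusted p up to 0.126). With the sex label as a term the calls of Epn3 (0.103), Kcne1 (0.0662) and Ndnf (0.0614) were lost.

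Against the mean of the other 3 genotypes the response was more positive for Inmt (2.91), Dgat2 (1.19), Mid1ip1 (1.17), Kdm8 (1.13), Lonrf1 (1.11), Tcf15 (1.0), Igsf1 (1.0) and Pnck (0.89). It was more negative for Psca (-7.04), Fmn1 (-5.74), Ndnf (-3.42), Wdr92 (-3.37), Scn10a (-2.88), Cntn2 (-2.87), Pla2g4b (-2.41) and Slc1a4 (-2.4). Psca, a surface protein of epithelia, stood at 1.49, 3.07 and 3.24 CPM in TAC PKCδ-ablated hearts, against 15.2, 17.8 and 16.6 CPM in unstressed ones. Inmt, an indolethylamine methyltransferase, stood at 5.38, 12.5 and 6.69 CPM under TAC, against 2.04, 2.26 and 2.12 CPM. For both genes the groups did not overlap. The Psca call was lost without unstressed replicate 3 (adjusted p = 0.0711) or any TAC library. The Inmt call was lost on leaving out any of the 6 PKCδ-ablated libraries (adjusted p from 0.0682 to 0.169). It was also lost with the sex label (0.0754) or the Y-linked level (0.0946) as a term, with the replicate block (0.0582) and without the filter on low counts (0.0534). Without unstressed replicate 3 the adjusted p was 0.224 for Tcf15, 0.164 for Igsf1, 0.214 for Pnck, 0.104 for Cntn2 and 0.0514 for Pla2g4b, and without TAC replicate 1 it was 0.154, 0.154, 0.0741, 0.153 and 0.0741. Mid1ip1, Kdm8, Dgat2 and Scn10a also lost their calls here without unstressed replicate 3 (0.164, 0.0641, 0.0625 and 0.0641), and Lonrf1 and Ndnf without TAC replicate 1 (0.0773 and 0.0716). With the sex label as a term Tcf15 (0.0735), Pnck (0.0752) and Cntn2 (0.0578) lost theirs, and with the Y-linked level Igsf1 (0.0542) and Pnck (0.0702).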

How the results depend on the processing

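The TAC effect of PKCδ-ablated hearts called 3696 genes, and between 3248 and 4874 under the planned settings other than male-labelled libraries alone (1600) and single libraries left out (2461 to 3915). The difference from wild-type hearts, 175 genes, became 85 with male-labelled libraries, 515 in a fit of the 14 libraries of both genotypes, 307 with DESeq2 and 56 to 256 with single libraries left out. The difference from the mean of the other genotypes, 164 genes, became 458 with the Y-linked level as a term, 11 with male-labelled libraries, 366 with DESeq2, and 14 to 274 with single libraries left out. Without both libraries whose Prkce level was at odds with the label, an alternative chosen after seeing the data, it was 298. In all, 3281 values of single genes under TAC kept direction and call, 281 lost the call, 45 gained it and 8 changed sign, all of genes with no call. These were Pdk4, at 0.08 in the reported fit, -0.08 with the sex label, -1.01 with the Y-linked level and between -0.04 and 0.27 without single libraries, and Prkce, at -0.25 with the sex label. They also included Slc4a1, at -0.07 in the reported fit, 0.24 with the Y-linked level, and between -0.53 and 0.28 without single libraries. The cause was not tested. Same-numbered libraries did not deviate together (r of -0.026, -0.011 and -0.025), so the numbers are not a pairing; with the replicate block the counts were 3630, 157 and 189. With 3 libraries a group, and a sex composition that changes with TAC, small differences and genes near 1 CPM stay uncertain.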
